A study of Mus musculus with 6 samples.

Results

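The collagen prolyl and lysyl hydroxylases are enzymes of the endoplasmic reticulum that add hydroxyl groups to prolines and lysines of new collagen chains, and 10 of their genes are described here out of 54385 rows of a table of estimated counts. The genes were taken by name, namely P4ha1, P4ha2, P4ha3, P4hb, Plod1, Plod2, Plod3, P3h1, P3h2 and P3h3. Each was found once, by the GENCODE M21 symbol of its Ensembl identifier. RNA came from interscapular brown adipose tissue (iBAT), the heat-making fat, of C57BL/6N mice aged 20 weeks and fed chow. There were 3 wild-type libraries (WT, genotype wt/wt) and 3 of the knockout ADCY3∆AT, which lack Adcy3-AT, in the title's words a truncated adenylyl cyclase 3. Every sample label says interscapular, whereas the series design says inguinal. How the knockout was made, in which cells it acts and whether each library came from its own mouse are not given in the sources used here. Anything else that differed between the groups, such as the collection, cannot be told apart from the genotype.

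Hydroxylated prolines let collagen chains hold together as a stable triple helix, and hydroxylated lysines carry sugars and take part in the cross-links of collagen fibrils. The enzymes that do this use iron, oxygen, 2-oxoglutarate and ascorbate. Prolyl 4-hydroxylase is assembled from alpha subunits, which hold the active site (P4ha1, P4ha2 or P4ha3), and beta subunits, which are protein disulfide isomerase (P4hb), a protein that also helps to fold many others. In fat, fibroblast-like stromal cells make fibrillar collagen, and adipocytes are surrounded by a basement membrane of type IV collagen. In other cells P4ha1, P4ha2 and Plod2 are well-known targets of the hypoxia-inducible factors.

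The family was selected on the differences between genotypes in these same 6 libraries, which were already known. The differences between genotypes are therefore a description. Their adjusted p-values, from edgeR's quasi-likelihood test over all 14332 tested genes, place each gene within that fit and are not independent evidence. A gene is called at an adjusted p under 0.05, and log2 fold changes are knockout minus WT. Small unadjusted p-values were common in this fit, where the edgeR p of Plod3 (0.0221) was at rank 2164 among 14332 genes. At least 2164 of the 14332 tested genes thus had an unadjusted p under 0.05 in edgeR. Counts of list genes with an unadjusted p under 0.05 stand beside that background and are descriptions only. Levels of 1 gene across libraries are CPM, counts scaled to a common library size with trimmed mean of M-values (TMM) factors. Levels of different hydroxylases are set side by side as TPM, which also divides counts by exon length, except where values with no length correction are named as such.

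The libraries held 13758492 to 19592156 estimated counts. Ucp1, the uncoupling protein that marks brown adipocytes, was at 3679 to 5432 CPM in WT and 4028 to 4486 CPM in the knockout. Of 14 brown adipocyte markers edgeR called 0 (1 had an unadjusted p under 0.05), with a median log2 fold change of -0.10 and 11 of the 14 below 0. Their summed level was lower in every knockout library (15837 to 16575 CPM) than in any WT library (17599 to 18015 CPM), and the part of this in the results was not tested. Fabp4, the marker with the highest CPM, was at 7776 ± 1118 CPM in WT and 6803 ± 280 CPM in the knockout (SD, n = 3). A row without a gene symbol, whose identifier ends in the digits of that of Adcy3, was at 118 to 215 CPM in WT and 0 to 1.27 CPM in the knockout, while the row of Adcy3 overlapped between genotypes (166 to 248 CPM and 167 to 240 CPM). Skeletal muscle RNA went with genotype. Of 17 muscle markers 14 were tested and 8 were called lower in the knockout, as were 239 of all 14332 tested genes. Their summed level was 77.8 to 833 CPM in WT and 54.0 to 57.2 CPM in the knockout, where Pvalb was at 0. Myh4, a muscle myosin, was at 7.05, 27.2 and 165 CPM in WT and at most at 0.220 CPM in the knockout. It passed the filter on low counts only through its WT libraries, so its being tested was tied to its direction. The same can hold for other muscle markers, as the knockout sum was mostly Myl1 (43.6 to 47.4 CPM). Over the 14 tested muscle markers the median log2 fold change was -7.07, and all 14 were below 0. Nothing is read from the 8 calls. The part of muscle RNA in the results was not tested. Of 11 fibroblast markers 10 were tested and edgeR called 0 (1 had an unadjusted p under 0.05). Their sum was 161 to 230 CPM in WT and 152 to 200 CPM in the knockout. In whole tissue, fewer cells of a type and less RNA per cell cannot be told apart.

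Of the 10 hydroxylases 9 had enough counts to be tested, and 4 were called, all higher in the knockout. These were both detected alpha subunits of prolyl 4-hydroxylase (P4ha1 and P4ha2) and the lysyl hydroxylases Plod2 and Plod1. Of all tested genes, 2.63% were called higher and 4.30% were called in either direction. In 6 of the 9 the knockout libraries all lay above the WT libraries, as they did in 15.1% of all tested genes. Since this contrast chose the family, nothing is read from these shares. The median log2 fold change was 0.45 over the 9 and -0.01 over all tested genes. Calls over all genes were 377 higher and 239 lower, or 282 higher and 274 lower with upper-quartile factors.

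**Figure D1:**
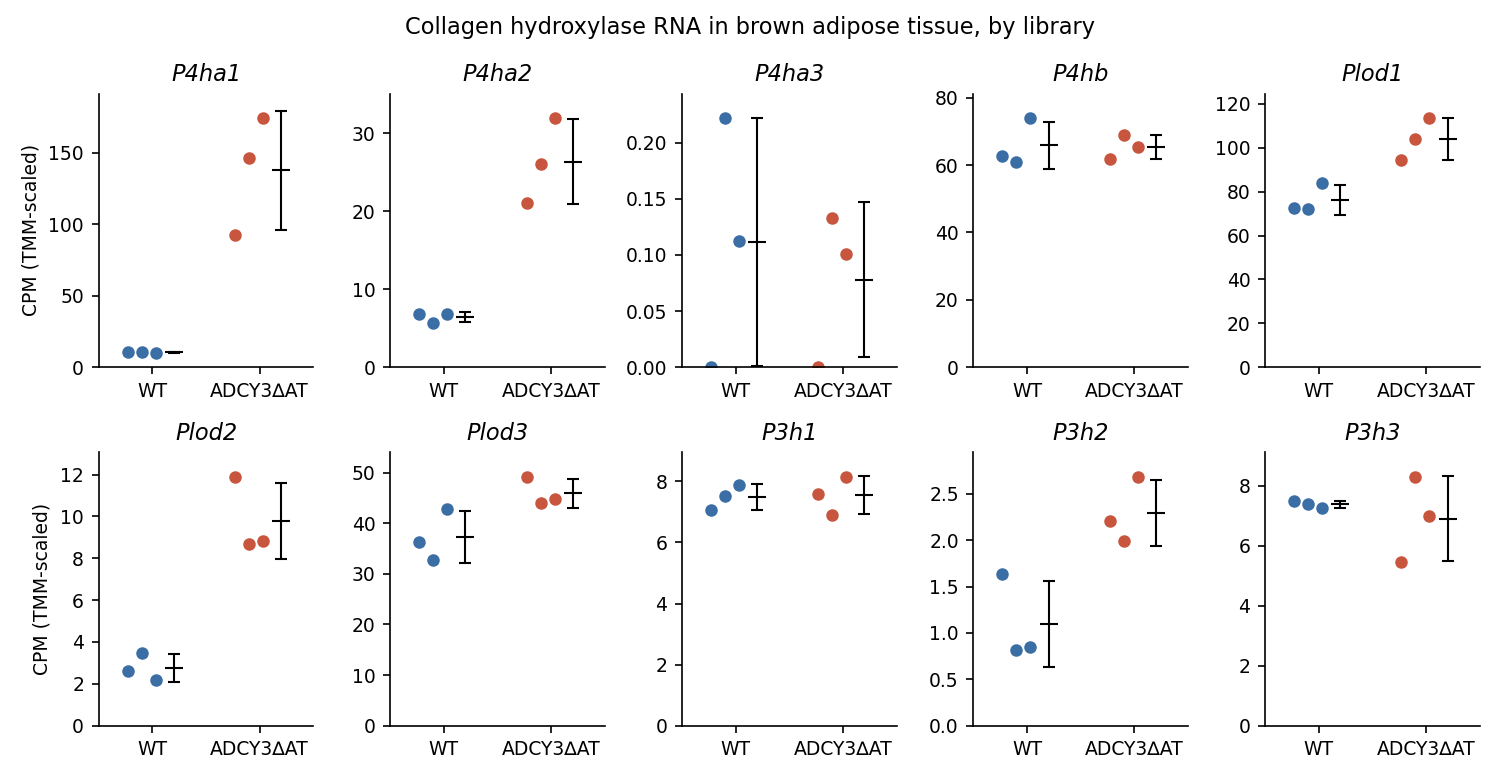
Level of each hydroxylase in CPM (TMM-scaled, linear axes that start at 0 and differ between panels) in each library, WT in blue and ADCY3∆AT in red, with the mean and SD of 3 libraries in black beside the points. The points of P4ha1, P4ha2 and Plod2 stand well apart between genotypes, while those of P4hb, P3h1 and P3h3 overlap.

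P4ha1 encodes the main alpha subunit of prolyl 4-hydroxylase in most tissues. The gene (ENSMUSG00000019916) lies on the plus strand of chromosome 10 from 59323296 to 59373304 in GRCm38. It was at 10.3, 10.6 and 10.1 CPM in the WT libraries and at 92.4, 146 and 174 CPM in the knockout libraries. The WT libraries were nearly level, the knockout libraries were spread, and the genotypes did not overlap. These levels rest on 143 to 179 counts in a WT library and 1679 to 3439 in a knockout library. The fold was 13.3 (95% interval 9.30 to 19.1, log2 3.74, SE 0.23, edgeR adjusted p = 0.000490), at rank 5 by log2 fold change and rank 3 by p among all tested genes.

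P4ha2 encodes the other alpha subunit found at more than trace level here, and its product forms an enzyme of its own with P4hb. The gene (ENSMUSG00000018906) lies on the plus strand of chromosome 11 from 54100095 to 54131665. It was at 6.79, 5.69 and 6.88 CPM in WT and at 21.1, 26.1 and 31.9 CPM in the knockout. As for P4ha1, the lowest knockout library was replicate 1 and the highest replicate 3, and the genotypes did not overlap. The fold was 4.08 (95% interval 3.13 to 5.30, log2 2.03, SE 0.17, edgeR adjusted p = 0.00155), so the interval lies below that of P4ha1.

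P4ha3, the third alpha subunit (chromosome 7), was at the limit of detection in this tissue. It had 0, 3 and 2 counts in WT and 0, 2 and 2 in the knockout, did not pass the filter on low counts and was not tested. A count of 0 allows up to 3 counts, or 0.152 to 0.222 CPM depending on the library, so no fold is given. Such limits cover counting error only.

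P4hb, the beta subunit (ENSMUSG00000025130, chromosome 11, 120560298 to 120573253, minus strand), was at 62.7, 60.8 and 73.8 CPM in WT and at 61.7, 69.0 and 65.2 CPM in the knockout. The genotypes overlapped, and the log2 fold change was -0.01 (95% interval -0.22 to 0.20, edgeR adjusted p = 0.956). Its sign turned without WT replicate 3 (0.08), without knockout replicate 1 (0.04) and with no filter on low counts (0.01). The interval of the fold, 0.858 to 1.15, lies far from the folds of P4ha1 and P4ha2.

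The balance of alpha to beta subunit RNA followed from these values. Per length, the alpha subunits together were at 6.79, 6.58 and 6.72 TPM in WT and at 48.1, 80.5 and 89.9 TPM in the knockout. P4hb was at 41.4, 39.4 and 48.2 TPM in WT and at 40.1, 48.8 and 43.2 TPM in the knockout. The ratio of alpha to P4hb RNA was thus 15.7 ± 1.51% in WT and 164 ± 44.1% in the knockout (SD, n = 3), above P4hb in each knockout library and far below it in each WT library. P4ha1 was 70.1 ± 2.06% of the alpha RNA in WT and 88.5 ± 1.37% in the knockout (SD, n = 3). Both values depend on the length given to P4ha2, whose annotated exons cover 6239 bases in all against 3060 in its longest transcript. With the longest transcripts P4ha1 was 54.3% of alpha RNA in WT and 79.4% in the knockout, and the ratio of alpha to P4hb RNA was 20.6% and 186%. With no length correction that ratio was 25.9% in WT and 250% in the knockout.

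**Figure D2:**
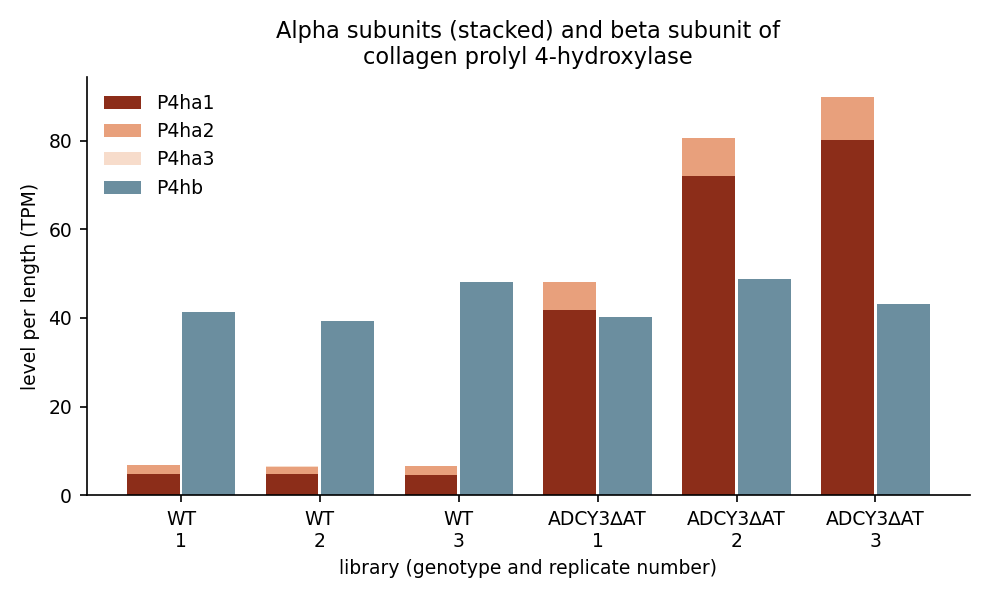
Level per length (TPM, linear axis from 0) of the alpha subunits of prolyl 4-hydroxylase, stacked, and of the beta subunit P4hb in each of the 6 libraries. The alpha stack is 6.58 to 6.79 TPM in WT and 48.1 to 89.9 TPM in ADCY3∆AT, while P4hb lies between 39.4 and 48.8 TPM throughout.

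The promoter windows of the subunits are shown because P4ha1 and P4ha2 were called and their partner P4hb was not. RefSeq windows of GRCm38.p6, from 250 bases before to 50 after the annotated start, were given for 8 of the 10 genes, without Plod2 and P3h2. Capitals mark the core of the hypoxia response element, ACGTG or GCGTG, on either strand. The windows are chr10:59323046-59323345 on the plus strand for P4ha1, chr11:54100674-54100973 on the plus strand for P4ha2 and chr11:120573204-120573503 on the minus strand for P4hb, each written 5′ to 3′ along the gene. RefSeq and GENCODE can place a gene's start differently, as they do for P4ha2.
P4ha1: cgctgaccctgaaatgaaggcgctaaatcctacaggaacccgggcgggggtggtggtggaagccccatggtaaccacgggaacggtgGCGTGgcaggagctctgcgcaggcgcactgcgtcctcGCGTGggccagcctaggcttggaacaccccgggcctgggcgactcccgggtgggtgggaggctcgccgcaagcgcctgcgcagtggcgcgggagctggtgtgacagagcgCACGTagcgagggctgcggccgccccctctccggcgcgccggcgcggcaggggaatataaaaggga
P4ha2: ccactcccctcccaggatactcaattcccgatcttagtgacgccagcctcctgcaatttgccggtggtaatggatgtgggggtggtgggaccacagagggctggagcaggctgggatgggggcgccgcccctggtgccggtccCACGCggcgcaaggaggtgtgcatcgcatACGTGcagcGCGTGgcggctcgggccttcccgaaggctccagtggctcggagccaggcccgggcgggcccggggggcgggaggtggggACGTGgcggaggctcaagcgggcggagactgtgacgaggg
P4hb: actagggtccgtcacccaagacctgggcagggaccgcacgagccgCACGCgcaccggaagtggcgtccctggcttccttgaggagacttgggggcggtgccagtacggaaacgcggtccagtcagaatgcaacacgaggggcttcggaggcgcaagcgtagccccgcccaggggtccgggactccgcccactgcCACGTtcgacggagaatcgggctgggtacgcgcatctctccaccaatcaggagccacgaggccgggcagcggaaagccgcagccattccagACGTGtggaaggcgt

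The core was found 3 times in the window of P4ha1, 4 times in that of P4ha2 and 3 times in that of P4hb, counting each start on either strand. It was found 4 times for Plod3, 2 times for Plod1, 2 times in each of the windows of P3h1 and 0 times for P4ha3 and P3h3. Among all 32851 windows 43.8% held at least 1 core, 8.93% at least 3 and 3.86% at least 4, and the 3 printed windows were richer in G and C (70.3%, 70.3% and 67%) than the median window (52.7%). The pairs of heat shock units GAANNTTC and TTCNNGAA, present in 7.86% and 8.52% of windows, were found in the window of Plod1 (the first) and of P4ha2 (the second). The full cyclic AMP response element TGACGTCA, present in 1.79% of windows, was in none of the windows of the family. These matches are letters in a window, not binding sites.

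The lysyl hydroxylases differ in the lysines they act on. Plod2, whose enzyme acts on the telopeptides at the chain ends and so favours stable cross-links, showed the largest fold of the 3. The gene (ENSMUSG00000032374, chromosome 9, 92542223 to 92608428, plus strand) was at 2.61, 3.47 and 2.20 CPM in WT and at 11.9, 8.70 and 8.81 CPM in the knockout. The genotypes did not overlap, and the highest library was knockout replicate 1, which was the lowest knockout library for P4ha1 and P4ha2. The fold was 3.58 (95% interval 2.55 to 5.02, log2 1.84, SE 0.21, edgeR adjusted p = 0.00547), on 39.0 to 47 counts in a WT library. Gm38391, annotated on the opposite strand, overlaps the gene by 647 bases and was at most at 0.220 CPM in any library.

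Plod1, whose enzyme acts mainly on the helical part of the chains, was the most abundant lysyl hydroxylase. The gene (ENSMUSG00000019055, chromosome 4, 147909753 to 147936767, minus strand) was at 72.4, 72.2 and 83.9 CPM in WT and at 94.5, 104 and 113 CPM in the knockout. The genotypes did not overlap but were close. The fold was 1.36 (95% interval 1.18 to 1.58, log2 0.45, SE 0.09, edgeR adjusted p = 0.0385). The call ended with upper-quartile factors (log2 0.41, adjusted p = 0.0589) and when WT replicate 1 or 2 or knockout replicate 2 or 3 was left out (adjusted p between 0.101 and 0.151, at a log2 fold change between 0.38 and 0.45).

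Plod3, whose enzyme also adds the sugars to hydroxylysine, was not called. The gene (ENSMUSG00000004846, chromosome 5) was at 36.2, 32.7 and 42.8 CPM in WT and at 49.2, 43.9 and 44.7 CPM in the knockout. The genotypes were separate only narrowly (log2 fold change 0.30, SE 0.11, edgeR adjusted p = 0.146). Znhit1, a gene on the opposite strand at 20.5 to 28.8 CPM, overlaps Plod3 by 1003 bases, and reads from the overlap cannot be assigned by strand since no source used here states the strandedness. Of the lysyl hydroxylase RNA per length, Plod2 was 2.61 ± 0.826% in WT and 6.66 ± 1.31% in the knockout (SD, n = 3), while the share of Plod1 ranged from 55.7% to 57.5% in WT and from 51.6% to 59.3% in the knockout.

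The prolyl 3-hydroxylases modify few prolines per chain, and none of the 3 was called. P3h1, which works in a complex with Crtap and cyclophilin B, was at 7.05, 7.54 and 7.89 CPM in WT and at 7.60, 6.91 and 8.15 CPM in the knockout. The genotypes overlapped (log2 fold change 0.01, between -0.28 and 0.30 at 95%, with an edgeR adjusted p of 0.968), and the sign turned without WT replicate 1 (-0.03), without knockout replicate 3 (-0.04) and with upper-quartile factors (-0.03). P3h3 was at 7.51, 7.39 and 7.27 CPM in WT and at 5.45, 8.30 and 6.98 CPM in the knockout. The knockout libraries lay on both sides of WT (log2 fold change -0.10, between -0.48 and 0.28 at 95%, with an edgeR adjusted p of 0.771), and without knockout replicate 1 the log2 fold change was 0.05.

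P3h2, which acts on type IV collagen of basement membranes, was at 1.63, 0.813 and 0.845 CPM in WT and at 2.20, 1.99 and 2.68 CPM in the knockout. All knockout libraries lay above WT, but 1 WT library stood near them and WT held only 11.1 to 24.8 counts per library. Its log2 fold change was 1.06, between 0.32 and 1.81 at 95% (adjusted p of 0.105 in edgeR), so the gene was not called. Among the alternatives tried it was called only with no filter on low counts (log2 1.09, adjusted p = 0.0331 in edgeR). That fit called 1951 genes against 616 in the main fit, and its calls may not be reliable. The annotated genes that overlap it, Gm4524 and AU015336, were at most at 0.133 CPM.

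**Figure D3:**
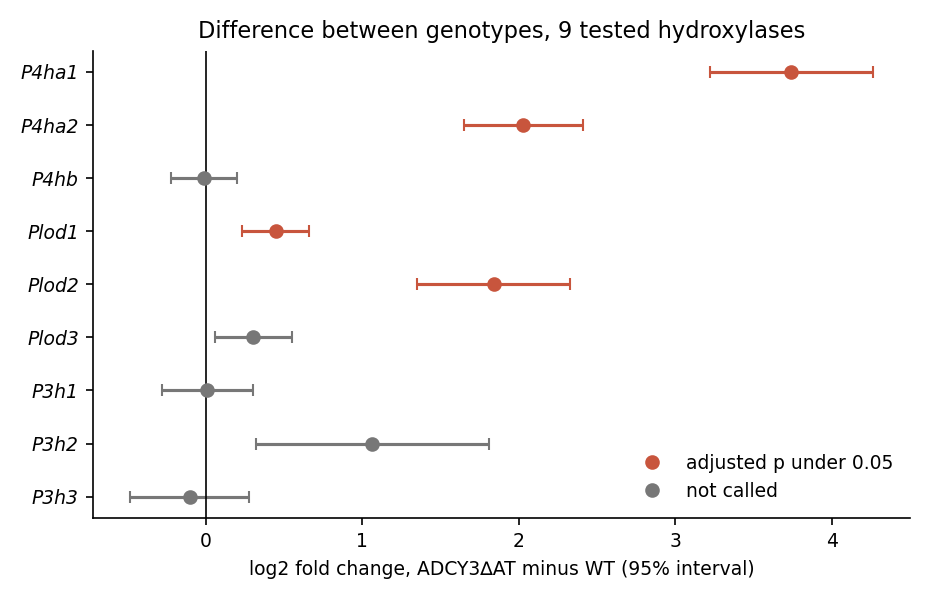
Log2 fold change (ADCY3∆AT minus WT) of the 9 tested hydroxylases with its 95% interval from the edgeR fit of 3 libraries per genotype, red where the adjusted p was under 0.05. The intervals of P4ha1 (3.22 to 4.26), P4ha2 (1.65 to 2.41) and Plod2 (1.35 to 2.33) lie apart from those of P4hb, P3h1 and P3h3, which include 0. Those of Plod3 (0.06 to 0.55) and P3h2 (0.32 to 1.81) lie above 0, though neither gene was called.

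Per length, the order of levels in WT was P4hb (43.0 ± 4.60 TPM), Plod1 (19.8 to 23.1), Plod3 (15.4 ± 2.15), P4ha1 (4.69 ± 0.0924), P3h1 (3.64 ± 0.182), P3h3 (3.52 ± 0.0809), P4ha2 (1.94 ± 0.215), Plod2 (0.956 ± 0.219), P3h2 (0.548 ± 0.237) and P4ha3 (0.0660 ± 0.0655; SD, n = 3). Neighbours in this order had library ranges that did not overlap, except P3h1 with P3h3 and Plod2 with P3h2. In the knockout P4ha1 came first at 64.6 ± 20.2 TPM, with a range that overlapped that of P4hb at 44.0 ± 4.38 TPM. P4ha2 was at 8.15 ± 1.72 TPM there, above P3h1, Plod2 and P3h3, which lay between 3.40 and 3.77 TPM with overlapping neighbours (SD, n = 3). The order depends on the lengths used. With the longest transcripts P4ha2 was at 3.48 TPM in WT and 14.6 TPM in the knockout, and P3h3 (4.19 TPM) came before P3h1 (3.86 TPM) in WT. In the knockout Plod1 (42.9 TPM) then came before P4hb (38.6 TPM), and Plod2 (4.51 TPM) and P3h3 (4.04 TPM) before P3h1.

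The genes with the profile most like that of P4ha1 over the 6 libraries were Hsph1, Thbs1, Hspb1, Nr4a3 and Hspa4l. Likeness was the root mean square difference of log2(CPM + 0.5), each gene centred on its own mean, and it was 0.252, 0.314, 0.422, 0.724 and 0.849 in that order, the smallest among 12382 genes with a symbol that is not a clone or predicted name. Hsph1, Hspb1 and Hspa4l encode heat shock proteins, Thbs1 encodes the matrix protein thrombospondin and Nr4a3 an orphan nuclear receptor. Hsph1 was at 20.0, 16.0 and 22.3 CPM in WT and at 150.1, 325 and 424 CPM in the knockout. Thbs1 was at 1.502, 1.85 and 1.75 CPM in WT and at 11.7, 23.9 and 20.7 CPM in the knockout. P4ha2 came next at rank 6 (0.858), Plod2 was at rank 21 (1.07) and P3h2 at rank 123 (1.43). The other tested members were far down, with Plod1 at rank 552, Plod3 at 1512, P3h1 at 5705, P4hb at 5952 and P3h3 at 7762. With 2 separate groups of libraries this measure mostly reflects the difference between genotypes.

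The remaining genes of collagen folding, secretion and processing lay on both sides of 0, with 11 log2 fold changes above it and 10 below. Of 24 listed genes 21 were tested, 1 was called higher, 0 lower and 20 were not called, with a median log2 fold change of 0.02. In edgeR 6 had an unadjusted p under 0.05. Their summed level was 534 to 570 CPM in WT and 607 to 810 CPM in the knockout, which do not overlap. This sum includes Serpinh1, at a mean of 157 CPM in WT and 360 CPM in the knockout, so it does not stand for the list as a whole. The call was Serpinh1, which encodes HSP47, the collagen chaperone of the endoplasmic reticulum. It was at 153, 148 and 170 CPM in WT and at 267, 384 and 429 CPM in the knockout. Knockout replicate 1 was the lowest of its group, as for P4ha1 and P4ha2, and the genotypes did not overlap. Serpinh1 rose 2.29-fold (log2 1.20, SE 0.16, edgeR adjusted p = 0.00819). DESeq2 also called Loxl1, lower in the knockout (log2 -0.49, DESeq2 adjusted p = 0.0460).

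Collagen chains, the substrates, gave no call in edgeR. All 17 listed were tested. Calls numbered 0 in edgeR, 0 in limma-voom and 1 in DESeq2, 3 chains had an unadjusted p under 0.05 in edgeR, and the median log2 fold change was 0.02. Their summed level was 1104 to 1323 CPM in WT and 1160 to 1427 CPM in the knockout, which overlap. The smallest p-values were those of Col8a1, a short-chain collagen (log2 -0.73, edgeR adjusted p = 0.0675), and Col16a1, a fibril-associated collagen (0.66, adjusted p = 0.0841). The DESeq2 call was Col8a1, and without knockout replicate 1 edgeR called Col14a1 higher (log2 1.22, adjusted p = 0.0376).

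Other protein hydroxylases of the same cofactor class and other disulfide isomerases were also at 0 calls in edgeR. Of 16 other hydroxylases, which act on the hypoxia-inducible factors, ribosomal proteins and further targets, edgeR called 0, limma-voom 0 and DESeq2 1, and 4 had an unadjusted p under 0.05 (median log2 fold change -0.04). Their summed level was 506 to 534 CPM in WT and 568 to 644 CPM in the knockout, which do not overlap. This sum includes Egln1, whose mean was 214 CPM in WT and 287 CPM in the knockout. Egln1, the main prolyl hydroxylase that senses oxygen, was at 221, 239 and 182 CPM in WT and at 307, 293 and 261 CPM in the knockout. Its log2 fold change of 0.43 was not called by edgeR (adjusted p = 0.0687) and was the call of DESeq2. For Jmjd7 the log2 fold change was -0.41 (edgeR, adjusted p = 0.141). Of 16 relatives and partners of P4hb in disulfide exchange, edgeR called 0, limma-voom 0 and DESeq2 1, and 2 had an unadjusted p under 0.05 (median -0.05). The sum was 570 to 618 CPM in WT and 561 to 593 CPM in the knockout, which overlap. The smallest p-values were those of Txndc5 (log2 -0.37, edgeR adjusted p = 0.0806) and Erp44 (0.28, adjusted p = 0.103), and the call of DESeq2 was Txndc5.

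Well-known targets of the hypoxia-inducible factors outside the family were mixed. Of 22 listed 20 were tested, 1 was called higher, 1 lower and 18 were not called, with a median log2 fold change of 0.05. In edgeR 7 had an unadjusted p under 0.05. Their sum was 10736 to 10974 CPM in WT and 9079 to 12109 CPM in the knockout, on both sides of WT. Ddit4, an inhibitor of mTORC1 signalling that also answers to glucocorticoids, was at 29.2, 21.4 and 24.1 CPM in WT and at 253, 55.2 and 72.6 CPM in the knockout. Knockout replicate 1 held far more than the others, and the log2 fold change was 2.35 (edgeR adjusted p = 0.0479) with that library and 1.37 without it (adjusted p = 0.00490). Pfkfb4, a regulator of glycolysis, was at 6.66, 5.32 and 5.58 CPM in WT and at 2.70, 3.39 and 3.29 CPM in the knockout. The groups did not overlap (log2 fold change -0.91, edgeR adjusted p = 0.0336). The call of Pfkfb4 ended in each of the 6 fits without 1 library, and that of Ddit4 without any 1 WT library or knockout replicate 3, so 0 genes of the list were called in those 4 fits. Ddit4 was also not called with upper-quartile factors (2.31, edgeR adjusted p = 0.0517) or by limma-voom (2.03, adjusted p = 0.0863), and Pfkfb4 not with the replicate number as a block (adjusted p = 0.0855). The lower call was Bhlhe40 without knockout replicate 1 (-1.54, edgeR adjusted p = 0.0142) and Hk2 without knockout replicate 2 (-0.82, adjusted p = 0.0163), and limma-voom called Pfkfb4 and Bhlhe40 lower and 0 genes higher. DESeq2 called 6 genes of the list, with Pfkfb4, Bhlhe40 and Hk2 lower. It called Ddit4, Kdm3a (log2 0.77, DESeq2 adjusted p = 0.00402) and Bnip3 (0.49, adjusted p = 0.0471) higher.

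**Figure D4:**
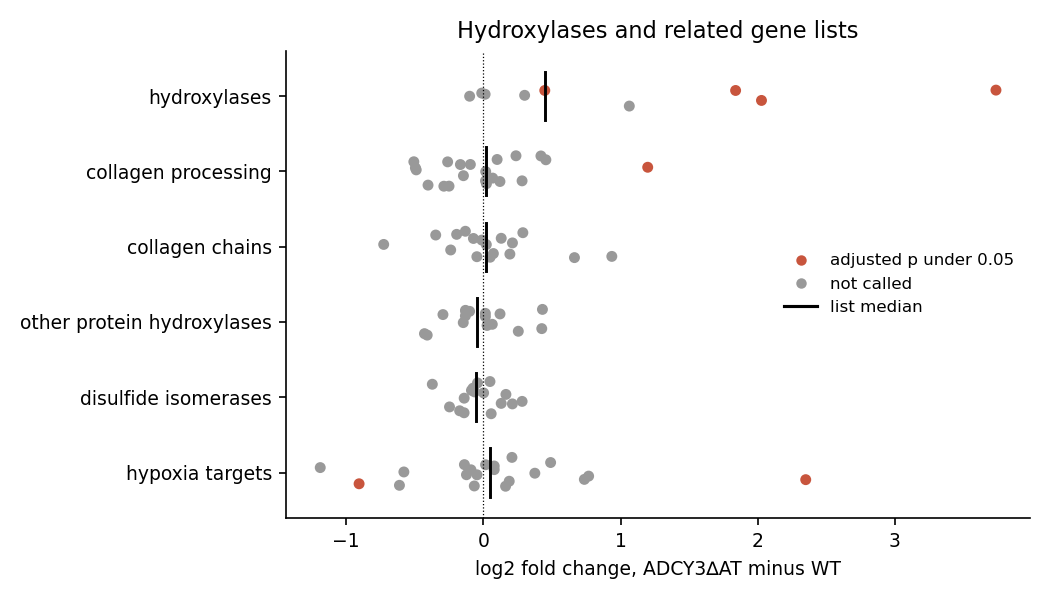
Log2 fold change (ADCY3∆AT minus WT) of each tested gene in the hydroxylase family and in the 5 related lists, 1 point per gene with vertical scatter added for legibility, red where the adjusted p was under 0.05 and with the list median as a black bar. The medians of the related lists lie between -0.05 and 0.05, with single called genes (Serpinh1, Ddit4 and Pfkfb4) away from 0.

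Among the other cell types checked, 1 of 7 mural markers (Cspg4) was called lower, and edgeR called 0 of 9 endothelial (5 with an unadjusted p under 0.05) and 0 of 9 macrophage markers (0 with an unadjusted p under 0.05). Summed levels in WT and the knockout were 540 to 629 and 614 to 658 CPM for mural markers, 643 to 733 and 676 to 795 CPM for endothelium, and 66.9 to 119 and 64.5 to 119 CPM for macrophages. The members with the highest CPM were Rgs5 (293 ± 34.8 CPM in WT, 364 ± 19.6 CPM in the knockout), Cdh5 (185 ± 9.61 and 179 ± 5.30 CPM) and Lyz2 (24.7 ± 6.36 and 26.4 ± 10.5 CPM; SD, n = 3), and those of the fibroblast and muscle lists were Dcn (95.4 ± 14.8 and 86.6 ± 17.6 CPM) and Myl1 (53.5 ± 13.8 and 45.3 ± 1.91 CPM). Myl1 (log2 fold change -0.24) was unlike most of the muscle list, whose median log2 fold change was -7.07. The part of these cell types in the differences of the hydroxylases was not tested.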

How the data were processed

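Gene expression was measured by paired-end sequencing of polyadenylated RNA in 6 libraries. The deposited values are estimated counts, in 1 table of genes by 6 libraries. Per the submitters' processing notes, StringTie, Salmon, edgeR and the GRCm38 build were used, and versions and roles are not given in the sources used here. Each column name is the number in 1 sample's description, and 54131 rows by identifier to GENCODE M21. Where rows share a symbol (Aldoa), the one with the higher mean was used.

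Estimated counts were rounded. Genes were kept with filterByExpr (minimum count 10, minimum total 15), scaled by TMM and tested two-sided for genotype alone by edgeR 4.0.16 (quasi-likelihood, R 4.3.3), and p-values were adjusted by Benjamini-Hochberg over 14332 genes. Alternatives included DESeq2 1.42.0 and limma-voom (limma 3.58.1). TPM used the union of annotated exons. The fit was tested on data simulated under its own model, which checks the code but not whether that model suits these libraries. Library totals limit precision most for genes near 10 counts. Between replicates, chi-square per gene was 6.18 to 26.8, above sampling noise. Whether they are separate mice is not stated, so p-values measure only the spread between these libraries.

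The members, gene lists and tests were chosen with earlier results of these data known. Named genes were all members, up to 3 called genes of each pathway list (in lists with no call, the 2 genes of lowest p), the marker of highest CPM in each cell type list and the 5 genes most like P4ha1. Cspg4, Pvalb, Ucp1, Adcy3, Myh4, Col14a1, Bhlhe40, Hk2, Kdm3a, Bnip3 and Loxl1 were named outside this rule after their values were seen.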

Additional observations from a re-analysis of the deposited data

How the results depend on the processing

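P4ha1, P4ha2 and Plod2 kept their direction and their call under all 14 alternatives. Of these, the threshold of 0.10 is the main fit read more loosely and could not end a call. Log2 fold changes, in gene order, were 3.53 to 3.97, 1.87 to 2.17 and 1.68 to 2.03 in the fits without 1 library. The number of hydroxylases called was 3 to 4 in those fits and 3 to 6 under the others, with Plod3 (0.33) and P3h2 (1.09) joining when no filter on low counts was used. The fit with no filter gave far smaller p-values (edgeR adjusted p of P4ha1 8.54e-248, against 0.000490 in the main fit). Its calls may not be reliable. Near 0 the sign turned for P4hb (-0.06 to 0.08 without 1 library, 0.01 with no filter), P3h1 (-0.04 to 0.07, and -0.03 with upper-quartile factors) and P3h3 (-0.24 to 0.05). Over all genes the count of calls was 1951 with no filter, 993 with DESeq2, 1375 at a threshold of 0.10 and 162 to 461 without 1 library. With no filter, with DESeq2 and at 0.10, the calls were 2, 2 and 3 for collagen processing, 2, 1 and 2 for collagen chains, 2, 1 and 1 for other protein hydroxylases, 1, 1 and 1 for disulfide isomerases and 8, 6 and 5 for hypoxia targets, which had 1 call with upper-quartile factors. The causes were not tested. Without 1 library the ranges were 1 to 1, 0 to 1, 0 to 0, 0 to 0 and 0 to 2 calls. The P4ha1 share of alpha RNA was 54.3% in WT and 79.4% in the knockout with the longest transcripts, 61.1% and 83.5% with no length correction, and 69.0% to 71.0% and 88.0% to 89.3% without 1 library. The ratio of alpha to P4hb RNA, recomputed by choices made after seeing the data, moved as given beside it.

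Same-numbered libraries of the genotypes did not deviate together across genes (correlations of -0.00665, 0.00699 and -0.0453). Differently numbered pairs lay between -0.0573 and 0.0581. The labels state no pairing, and such correlations cannot exclude a match that touches few genes. With the replicate number as a block, 324 genes, 4 hydroxylases and 1 hypoxia target were called, and P4ha1 had a log2 fold change of 3.69. Counts of 11 to 53 per library limit P3h2, and 0 to 3 limit P4ha3.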
